A study of Mus musculus with 18 samples.

Results

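Skeletal muscle is built from repeating sarcomeres, in which thick filaments of myosin pull on thin filaments of actin between Z-discs, and it shortens when calcium leaves the sarcoplasmic reticulum and reaches troponin. Fast fibers and slow fibers make different versions of most of these proteins from separate genes. In mice, Myh4, Myh1 and Myh2 encode the fast myosin heavy chains of type IIb, IIx and IIa fibers, and Myh7 encodes the slow one. A set of 37 such genes, out of 55450 gene IDs, was described across 18 mammary gland tumors. The set was chosen by values measured in these tumors, since earlier results of the same data were known, and was found by gene symbol. It held 7 thin filament genes, 8 thick filament genes, 10 genes of the Z-disc, titin and intermediate filaments, 7 genes of calcium handling and 5 genes of energy metabolism. By fiber type, 14 of the 37 genes were counted as fast, 5 as slow and 18 as shared by both.

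The tumors arose spontaneously and received no treatment, and the labels give each a mouse of its own. They comprised 1 Cbfb(homo), 14 Cbfb(het) and 3 Cbfb(wt) tumors. Every genotype label also carried MMTV-Cre(+), a Cre recombinase driven by the mouse mammary tumor virus promoter, and Pikca(H1047R, het), the submitters' spelling of an activating allele of the Pik3ca lipid kinase gene, so all of these groups share both. Cbfb encodes the partner subunit of the RUNX transcription factors. Animal ages were not used. Tumors are numbered here within each genotype, in the order of their records, and the numbers pair nothing. Libraries were made from polyadenylated RNA of whole tumor tissue and held 33210239 to 40974166 rounded expected counts each.

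Libraries Cbfb(het) 10 and 14 stood close together. Their counts differed by a chi-square of 4.51 per degree of freedom over 14533 genes, against at least 94.7 for every other pair within a genotype or between genotypes. That is more than sampling noise, but it does not settle whether they came from separate mice as labelled. They were kept as separate tumors, and results without either of them or with both merged are given below. Mammary epithelial genes were present in every tumor but uneven. The epithelial adhesion gene Epcam stood at 331 TPM in the Cbfb(homo) tumor and at 590 TPM in Cbfb(het) 5, but at 26.4, 27.2 and 75.1 TPM in Cbfb(het) 10, 14 and 1 and at 5.60 TPM in Cbfb(wt) 2. Levels below are TPM, a transcript abundance scaled for transcript length and library size.

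Muscle RNA was concentrated in 5 tumors, called muscle-rich below. The summed level of the 37 genes was 363 TPM in the Cbfb(homo) tumor and 8252, 1141, 734 and 304 TPM in Cbfb(het) 5, 1, 11 and 3. It was between 41.2 and 72.2 TPM in the other Cbfb(het) tumors and 60.5, 96.0 and 46.0 TPM in Cbfb(wt) 1, 2 and 3. Only 4 of 14 Cbfb(het) tumors lay above the highest Cbfb(wt) tumor, and the Cbfb(het) median of 54.0 TPM was below the Cbfb(wt) median of 60.5 TPM. As a share of all counts, the 37 genes took 0.0344% of the Cbfb(homo) library (95% Wilson interval 0.0339% to 0.0350%) and 0.767% of Cbfb(het) 5 (0.764% to 0.769%). The share was 0.108% in Cbfb(het) 1, 0.0845% in Cbfb(het) 11, 0.0283% in Cbfb(het) 3 and 0.0111% in Cbfb(wt) 2. These intervals cover counting error only. In whole tissue, fewer cells of a type and less RNA per cell cannot be told apart.

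**Figure D1:**
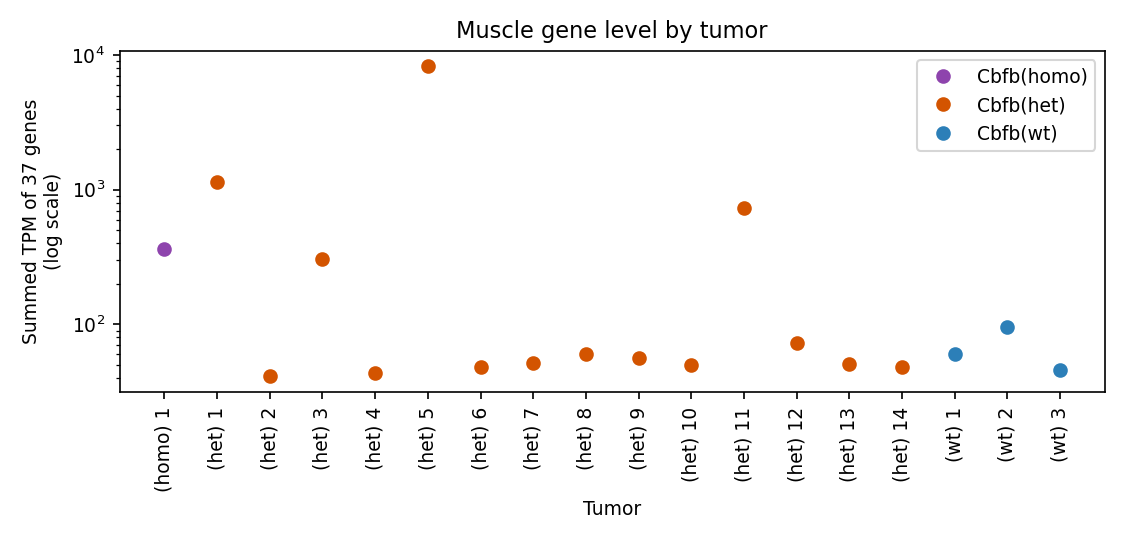
Summed TPM of the 37 genes (y axis, log scale) in each tumor (x axis, 1 point per tumor, colored by Cbfb genotype). Cbfb(het) 5 stands at 8252 TPM, and the Cbfb(homo) tumor and Cbfb(het) 1, 11 and 3 stand between 304 and 1141 TPM, above all Cbfb(wt) tumors.

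Detection was highest in the same 5 tumors. At 1 TPM or more, the Cbfb(homo) tumor held 30 of the 37 genes, Cbfb(het) 5 held 36, Cbfb(het) 1 held 33, Cbfb(het) 11 held 29 and Cbfb(het) 3 held 24. The Cbfb(wt) tumors held 11, 15 and 9, and the remaining Cbfb(het) tumors held 8 to 12. Thus 3 tumors carried at least 30 of the genes at this level, 6 did at 0.1 TPM, and 1 did at 5 TPM. The 6 tumors at 0.1 TPM were the muscle-rich tumors and Cbfb(wt) 2, which held 33 of the genes at that level. Cbfb(het) 5 had the highest level of 33 of the genes. The exceptions were Myh7 and the slow troponin T gene Tnnt1, highest in Cbfb(het) 1, the slow troponin I gene Tnni1, highest in Cbfb(het) 9, and the cardiac and slow-fiber calsequestrin gene Casq2, highest in the Cbfb(homo) tumor.

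**Figure D2:**
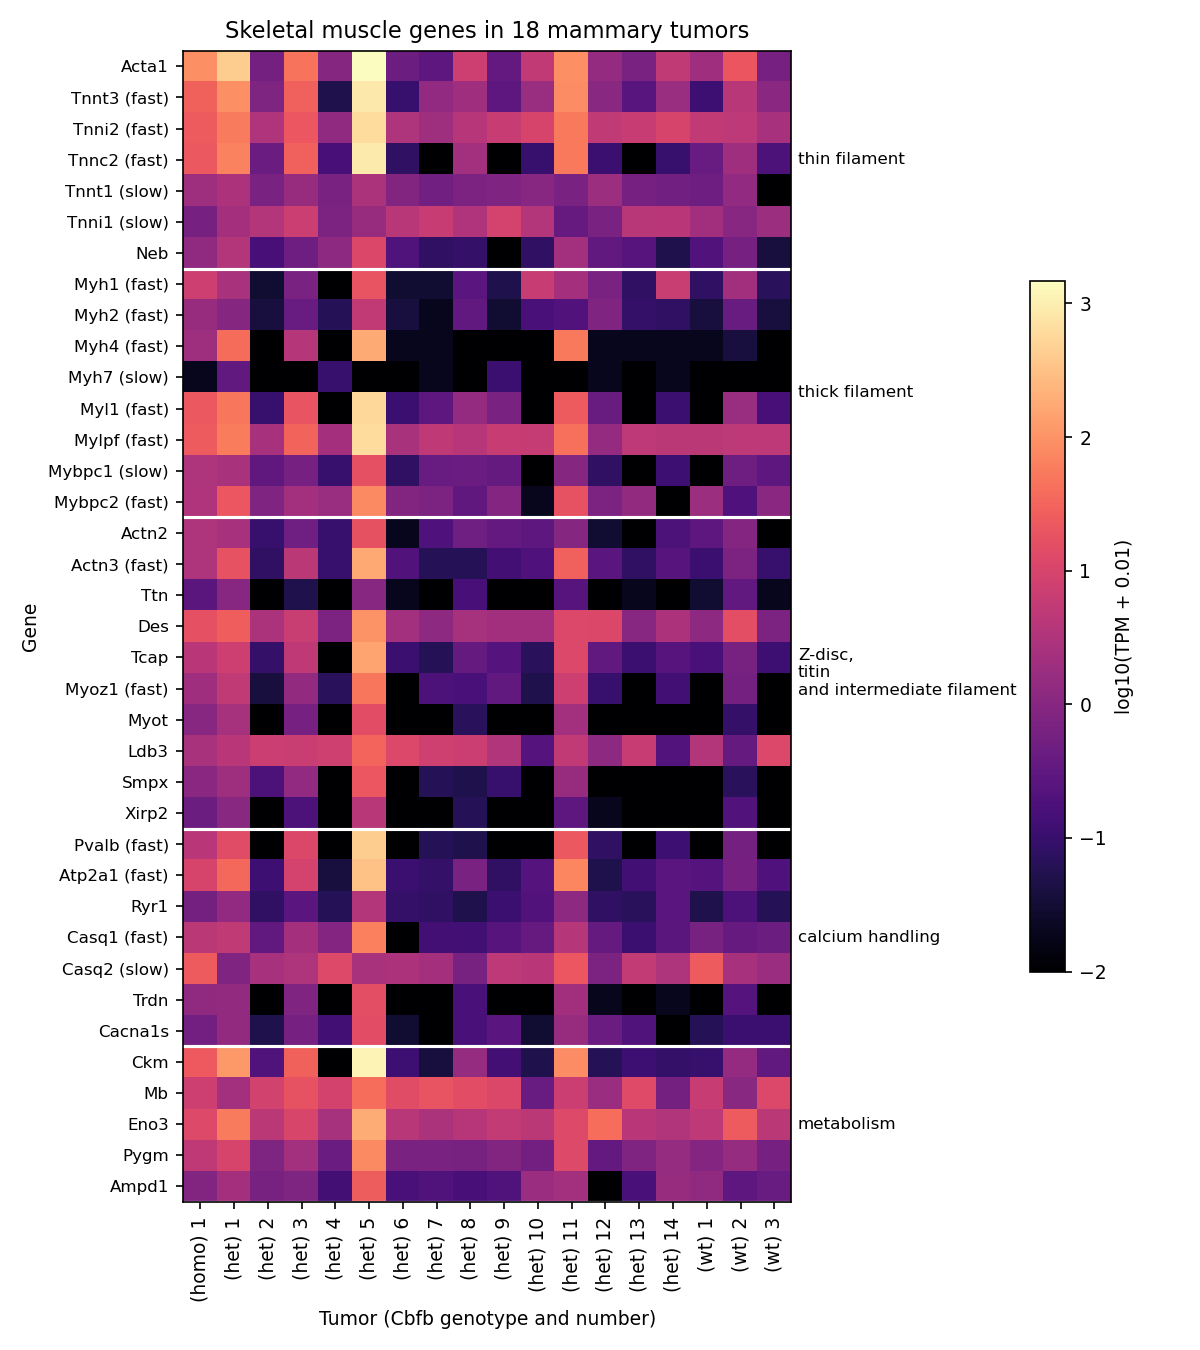
TPM of the 37 genes (rows, grouped by role, fast and slow genes marked) in 18 tumors (columns, by Cbfb genotype), colored by log10(TPM + 0.01). The columns of Cbfb(het) 5, 1, 11 and 3 and of the Cbfb(homo) tumor are bright through most rows, and Tnni1, Casq2, Mb and Ldb3 follow another pattern.

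Upstream sequence of 4 of the genes is shown because their RNA behaved differently across the tumors. Ckm and Myh4 were among the genes that marked the muscle-rich tumors, Myh1 was also present where Ckm was not, and Tnni1 did not follow the others. Each run is the 250 bases before the RefSeq start on build GRCm38.p6, read 5′ to 3′ on the plus strand. Ckm lies at chr7:19410844-19411093, Myh4 at chr11:67237562-67237811, Myh1 at chr11:67199852-67200101 and Tnni1 at chr1:135799171-135799420. Capitals mark matches, on either strand, to the MEF2 site, the CArG box, the E-box CAGCTG, the MCAT element CATTCC and TATAAA.
Ckm: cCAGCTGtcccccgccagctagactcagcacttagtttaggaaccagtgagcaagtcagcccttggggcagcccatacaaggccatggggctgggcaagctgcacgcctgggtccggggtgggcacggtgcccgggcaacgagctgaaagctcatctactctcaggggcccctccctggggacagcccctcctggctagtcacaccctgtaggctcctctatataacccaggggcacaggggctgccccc
Myh4: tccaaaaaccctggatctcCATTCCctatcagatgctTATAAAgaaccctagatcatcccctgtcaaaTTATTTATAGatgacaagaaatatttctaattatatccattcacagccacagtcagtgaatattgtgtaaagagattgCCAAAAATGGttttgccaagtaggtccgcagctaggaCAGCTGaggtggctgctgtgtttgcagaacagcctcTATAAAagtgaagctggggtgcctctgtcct
Myh1: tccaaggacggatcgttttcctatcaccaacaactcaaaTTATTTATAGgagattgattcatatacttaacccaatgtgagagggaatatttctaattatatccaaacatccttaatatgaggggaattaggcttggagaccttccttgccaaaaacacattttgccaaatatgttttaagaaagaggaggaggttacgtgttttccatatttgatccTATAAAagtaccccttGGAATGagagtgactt
Tnni1: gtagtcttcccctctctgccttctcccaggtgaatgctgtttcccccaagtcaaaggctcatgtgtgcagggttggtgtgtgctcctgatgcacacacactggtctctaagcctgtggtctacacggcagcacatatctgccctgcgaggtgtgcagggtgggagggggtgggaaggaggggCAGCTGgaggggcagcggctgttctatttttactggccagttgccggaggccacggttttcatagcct

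Both Myh4 and Myh1 held a MEF2 site match, which overlaps a TATAAA match on the other strand. Myh4 alone of the 4 windows held a CArG box match, and Ckm, Myh4 and Tnni1 each held CAGCTG. RefSeq promoters were matched for 28 of the 37 genes, giving 34 windows. CAGCTG was found in 44.1% of these windows and in 13% of all 32851 promoter windows of that length. The MEF2 site was found in 17.7% of the windows and in 2.92% of all, the CArG box in 11.8% and 1.47%, CATTCC in 23.5% and 12.6%, TATAAA in 14.7% and 12.4%, and the general E-box CANNTG, which includes CAGCTG, in 79.4% and 66.2%. Some genes held more than 1 window. By gene, CAGCTG was found in 13 of the 28, the MEF2 site in 6 and the CArG box in 3. CATTCC was found in 8, TATAAA in 5 and CANNTG in 23. These matches describe letters in a window and are not binding sites.

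The thin filament genes were led by skeletal alpha-actin. Acta1 stood at 92.8 TPM in the Cbfb(homo) tumor. In Cbfb(het) tumors it ranged from 0.30 to 1471 TPM with a median of 3.27, and 427, 91.0 and 46.5 TPM were found in Cbfb(het) 1, 11 and 3. The Cbfb(wt) tumors held 2.0, 19.9 and 0.60 TPM, inside the Cbfb(het) range. The fast troponin genes, whose products make the thin filament respond to calcium, had the same 5 tumors on top.

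Tnnt3, the fast troponin T gene, reached 28.4 TPM in the Cbfb(homo) tumor, ranged from 0.04 to 850 TPM with a median of 1.51 in Cbfb(het) tumors, and was 0.11, 4.12 and 1.09 TPM in Cbfb(wt) tumors. Tnnc2, the fast troponin C gene, reached 21.5 TPM in the Cbfb(homo) tumor, ranged from 0 to 922 TPM with a median of 0.12 in Cbfb(het) tumors, and was 0.40, 2.08 and 0.17 TPM in Cbfb(wt) tumors. Tnnc2 shares its locus with Ube2c, a cell division gene on the other strand, which was highest in Cbfb(het) 1 at 214 TPM, so its order does not follow Tnnc2. The fast troponin I gene Tnni2 had a floor in every tumor. It stood at 23.7 TPM in the Cbfb(homo) tumor, from 1.26 to 630 TPM with a median of 6.23 in Cbfb(het) tumors, and at 5.33, 4.74 and 2.61 TPM in Cbfb(wt) tumors. Nebulin (Neb), the giant protein along the thin filament, reached 1.25 TPM in the Cbfb(homo) tumor, 11.3 TPM in Cbfb(het) 5 and at most 0.60 TPM in Cbfb(wt) tumors.

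The slow thin filament genes stayed low. Tnnt1 was 1.91 TPM in the Cbfb(homo) tumor, 0.52 to 2.95 TPM in Cbfb(het) tumors and 0.47, 1.32 and 0 TPM in Cbfb(wt) tumors. Tnni1 was 0.61 TPM in the Cbfb(homo) tumor, 0.37 to 9.65 TPM in Cbfb(het) tumors and 2.17, 1.02 and 1.82 TPM in Cbfb(wt) tumors. Its 2 lowest values were those of muscle-rich tumors, the Cbfb(homo) tumor and Cbfb(het) 11.

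Among thick filament genes, the type IIb heavy chain Myh4 separated the tumors most widely. It was 1.91 TPM in the Cbfb(homo) tumor. It was 177, 54.2, 37.4 and 3.79 TPM in Cbfb(het) 5, 11, 1 and 3 and at most 0.01 TPM in the other Cbfb(het) tumors. Cbfb(wt) tumors held 0.01, 0.03 and 0 TPM. Myh1, of type IIx fibers, was 7.54 TPM in the Cbfb(homo) tumor and 19.1 TPM in Cbfb(het) 5, and it reached 6.28 and 6.48 TPM in Cbfb(het) 10 and 14, where Ckm was 0.04 and 0.08 TPM. Myh1 in Cbfb(wt) tumors was 0.07, 2.12 and 0.06 TPM. Myh2, of type IIa fibers, was 1.63 TPM in the Cbfb(homo) tumor, at most 5.51 TPM in Cbfb(het) tumors and at most 0.41 TPM in Cbfb(wt) tumors. The slow heavy chain Myh7 did not pass 0.32 TPM anywhere.

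The fast myosin light chains showed the same tumors on top. Myl1, an essential light chain, was 21.8 TPM in the Cbfb(homo) tumor, 0 to 558 TPM in Cbfb(het) tumors and 0, 1.68 and 0.14 TPM in Cbfb(wt) tumors. Mylpf, the regulatory light chain of fast muscle, was 24.5 TPM in the Cbfb(homo) tumor, 1.49 to 625 TPM in Cbfb(het) tumors and 4.42, 4.68 and 4.80 TPM in Cbfb(wt) tumors. Like Tnni2 and the enolase gene Eno3, Mylpf was at 1 TPM or more in all 18 tumors. Myosin binding protein C of fast fibers (Mybpc2) was 3.31 TPM in the Cbfb(homo) tumor and 82.1 TPM in Cbfb(het) 5, and Mybpc1, its slow counterpart, was 3.04 and 16.5 TPM there. In Cbfb(wt) tumors Mybpc2 reached at most 1.83 TPM and Mybpc1 at most 0.48 TPM.

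The mix of heavy chains differed between tumors that carried muscle RNA. Of the counts of the 4 adult heavy chain genes, Myh4 took 17.1% in the Cbfb(homo) tumor (95% Wilson interval 15.5% to 18.9%, of 1799 counts). It took 87.8% of 38013 counts in Cbfb(het) 5, 90.8% of 5665 in Cbfb(het) 1, 95.7% of 8380 in Cbfb(het) 11 and 78.2% of 862 in Cbfb(het) 3. It took 1.31% of 382 counts in Cbfb(wt) 2 (0.560% to 3.03%). It took 0 of 118 and 0 of 854 counts in Cbfb(het) 8 and 10, 0.57% in Cbfb(het) 12 and 0.22% in Cbfb(het) 14, so the Cbfb(homo) tumor and Cbfb(wt) 2 lay inside the range of the Cbfb(het) tumors.

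Myh1 led in other tumors. It took 68.2% of the heavy chain counts in the Cbfb(homo) tumor, 97.5% and 98.5% in Cbfb(het) 10 and 14, and 83.3% in Cbfb(wt) 2. Myh2 took 55.1% of 118 counts in Cbfb(het) 8 and 54.2% of 177 in Cbfb(het) 12, with Myh1 at 44.9% and 44.6%. Myh1, Myh2 and Myh4 lie side by side on chromosome 11 and are close copies, so counts shared between them by the authors' estimation are uncertain. The antisense gene Myhas overlaps Myh1 and held 1.72 and 1.3 TPM in Cbfb(het) 10 and 14 and 1.5 TPM in Cbfb(het) 5, and whether counting used strand is not given in the sources used here. Myh13, the heavy chain gene of extraocular muscle in the same cluster, was also highest in Cbfb(het) 10 and 14, at 1.39 and 1.23 TPM.

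**Figure D3:**
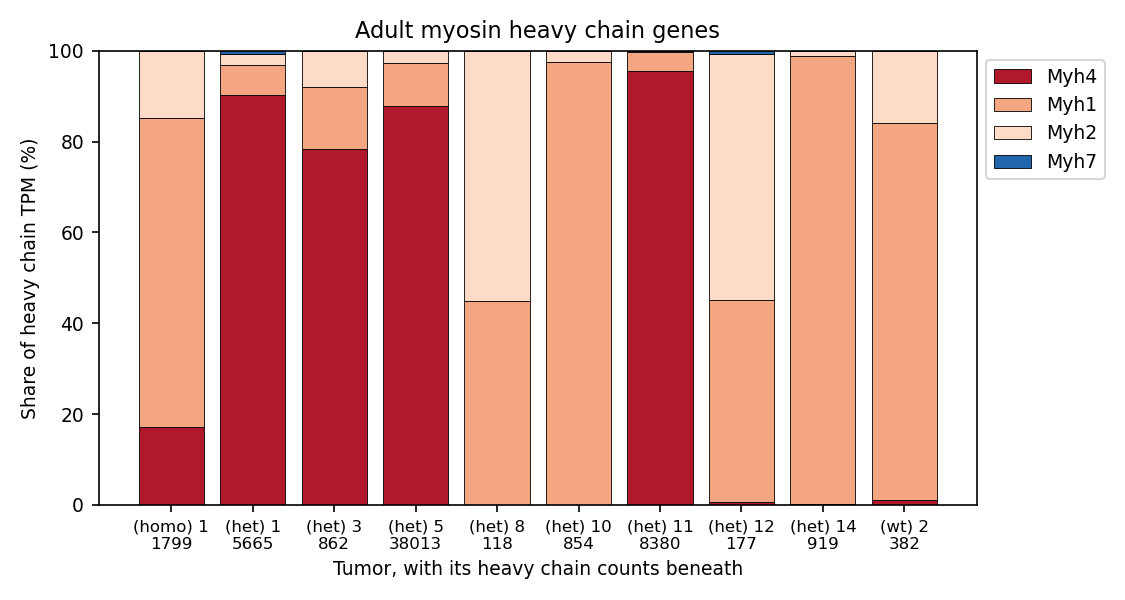
Share of adult myosin heavy chain TPM (y axis, percent) taken by Myh4, Myh1, Myh2 and Myh7 in the 10 tumors with at least 100 heavy chain counts (x axis, counts beneath each name). Myh4 fills most of the bar in Cbfb(het) 1, 3, 5 and 11, and Myh1 in the Cbfb(homo) tumor, Cbfb(het) 10 and 14 and Cbfb(wt) 2.

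Fast troponin forms outweighed slow forms in the muscle-rich tumors, but the calsequestrins did not follow. Fast Casq1 made up 15.7% of calsequestrin TPM (Casq1 with Casq2) in the Cbfb(homo) tumor and 96.1%, 15.4%, 86.9% and 42.9% in Cbfb(het) 5, 11, 1 and 3. Fast troponin I made up 97.5% of troponin I TPM (Tnni2 with Tnni1) in the Cbfb(homo) tumor and 99.7%, 99.3%, 95.9% and 75.5% in Cbfb(het) 5, 11, 1 and 3. Fast troponin T made up 93.7% in the Cbfb(homo) tumor and 99.7%, 99.2%, 96.9% and 94.6% in the same 4 Cbfb(het) tumors. Fast troponin C, set against the slow and cardiac form Tnnc1, made up 84.7% in the Cbfb(homo) tumor and 99.9%, 98.4%, 92.2% and 97.0% in them. The slow and cardiac light chains Myl2 and Myl3 did not pass 0.52 and 0.22 TPM in any tumor. Over all members of each kind, fast genes summed to 158 TPM and slow genes to 30.1 TPM in the Cbfb(homo) tumor. Of that slow sum, Casq2 alone held 24.5 TPM. The sums were 4907 and 23.7 TPM in Cbfb(het) 5, where Mybpc1 held 16.5 TPM of the slow sum. They were 13.1 and 26.7 TPM in Cbfb(wt) 1, where Casq2 alone held 24.0 TPM.

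Z-disc genes with little RNA elsewhere followed Acta1. Alpha-actinin 3 (Actn3), the fast-fiber crosslinker of actin, was 3.07 TPM in the Cbfb(homo) tumor, 0.05 to 168 TPM in Cbfb(het) tumors and at most 0.72 TPM in Cbfb(wt) tumors. Telethonin (Tcap), which caps titin at the Z-disc, was 4.36 TPM in the Cbfb(homo) tumor, 0 to 156 TPM in Cbfb(het) tumors and at most 0.64 TPM in Cbfb(wt) tumors. Myozenin 1 (Myoz1), a fast-fiber Z-disc protein, was 2.0 TPM in the Cbfb(homo) tumor, at most 51.4 TPM in Cbfb(het) tumors and at most 0.57 TPM in Cbfb(wt) tumors. Actn2, the Z-disc actinin shared with heart, reached 3.07 TPM in the Cbfb(homo) tumor, 17.7 TPM in Cbfb(het) 5 and 0.91 TPM in Cbfb(wt) 2.

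In Cbfb(het) 5, Smpx stood at 20.9 TPM, myotilin (Myot) at 15.1 TPM and Xirp2 at 4.08 TPM. Each was at most 0.20 TPM in Cbfb(wt) tumors. Titin (Ttn), the molecular spring of the sarcomere, was 0.27 TPM in the Cbfb(homo) tumor, 1.01 and 0.99 TPM in Cbfb(het) 5 and 1, and 0.32 TPM in Cbfb(wt) 2. Desmin (Des), the muscle intermediate filament also made by smooth muscle, was 16.4 TPM in the Cbfb(homo) tumor, 0.74 to 104 TPM in Cbfb(het) tumors and 1.21, 16.0 and 0.73 TPM in Cbfb(wt) tumors. Ldb3, a Z-disc adaptor, was at 1 TPM or more in 15 tumors. Its level was 2.7 TPM in the Cbfb(homo) tumor, 0.21 to 32.4 TPM in Cbfb(het) tumors and 3.55, 0.36 and 11.8 TPM in Cbfb(wt) tumors.

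In calcium handling, parvalbumin (Pvalb), the calcium buffer of fast fibers, was 4.38 TPM in the Cbfb(homo) tumor. It was 426, 21.5, 13.6 and 11.5 TPM in Cbfb(het) 5, 11, 1 and 3, at most 0.11 TPM in the other Cbfb(het) tumors, and 0, 0.57 and 0 TPM in Cbfb(wt) tumors. Atp2a1, the fast-fiber pump that returns calcium to the sarcoplasmic reticulum, was 9.73 TPM in the Cbfb(homo) tumor, 0.03 to 327 TPM in Cbfb(het) tumors and 0.22, 0.61 and 0.18 TPM in Cbfb(wt) tumors. Atp2a2, the pump gene used by slow fibers and by many other cells, was 115 TPM in the Cbfb(homo) tumor, 52.4 TPM in Cbfb(het) 5 and 97.7 to 182 TPM in Cbfb(wt) tumors. Both pumps were thus not ordered alike across tumors.

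The release machinery was present at low levels. The ryanodine receptor Ryr1 peaked at 3.55 TPM, its voltage sensor Cacna1s at 14.9 TPM and triadin (Trdn) at 15.7 TPM, all in Cbfb(het) 5. In Cbfb(wt) tumors these 3 genes reached at most 0.22 TPM. The fast calsequestrin gene Casq1, a calcium store protein, was 4.58 TPM in the Cbfb(homo) tumor, at most 65.0 TPM in Cbfb(het) tumors and at most 0.62 TPM in Cbfb(wt) tumors. Casq2 went another way. It was 24.5 TPM in the Cbfb(homo) tumor, 20.6 and 12.5 TPM in Cbfb(het) 11 and 4, 2.66 TPM in Cbfb(het) 5, and 24.0, 2.53 and 1.78 TPM in Cbfb(wt) tumors.

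Of the metabolic genes, muscle creatine kinase (Ckm), which regenerates ATP from creatine phosphate, was 23.2 TPM in the Cbfb(homo) tumor. It was 1119, 114, 83.1 and 29.6 TPM in Cbfb(het) 5, 1, 11 and 3 and at most 1.54 TPM in the other Cbfb(het) tumors. Cbfb(wt) tumors held 0.09, 1.49 and 0.33 TPM, inside the Cbfb(het) range. Muscle glycogen phosphorylase (Pygm) was 4.86 TPM in the Cbfb(homo) tumor, 0.34 to 80.5 TPM in Cbfb(het) tumors and 0.90, 1.54 and 0.60 TPM in Cbfb(wt) tumors. Muscle AMP deaminase (Ampd1) was 0.83 TPM in the Cbfb(homo) tumor, at most 24.7 TPM in Cbfb(het) tumors and 1.26, 0.29 and 0.39 TPM in Cbfb(wt) tumors.

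Myoglobin (Mb), the oxygen store of oxidative muscle, did not follow Ckm. It was 7.52 TPM in the Cbfb(homo) tumor, 0.40 to 40.4 TPM with a median of 10.3 in Cbfb(het) tumors, and 6.19, 1.04 and 12.1 TPM in Cbfb(wt) tumors. Cbfb(het) 1, with the second highest Acta1, held only 2.26 TPM of Mb. Muscle enolase (Eno3) was 12.3 TPM in the Cbfb(homo) tumor, 190 TPM in Cbfb(het) 5, 40.0 TPM in Cbfb(het) 12 and 4.70, 23.9 and 4.52 TPM in Cbfb(wt) tumors.

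Levels relative to Ckm were compared in the 5 tumors with at least 500 Ckm counts. Of 34 members with at least 10 counts in each of these tumors, 18 varied by no more than 2 on the log2 scale of TPM over Ckm TPM, and the median range was 1.84. Tnnc2 varied by 0.67, Tnnt3 by 0.69, Ampd1 by 0.80 and Cacna1s by 0.89. The ranges were 8.80 for Casq2, 5.01 for Tnnt1, 4.94 for Mb, 4.87 for Myh2 and 4.25 for Myh1. Tnni1 had enough counts in only 4 of these tumors, over which it varied by 7.27. The log2 ratio of Myh1 to Ckm in the Cbfb(homo) tumor was -1.62, against -5.15 to -5.88 in the 4 Cbfb(het) tumors. That tumor also had the lowest ratio for Myh4, at -3.60. The ends of the range for Mb were Cbfb(het) 1 at -5.66 and Cbfb(het) 3 at -0.72.

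**Figure D4:**
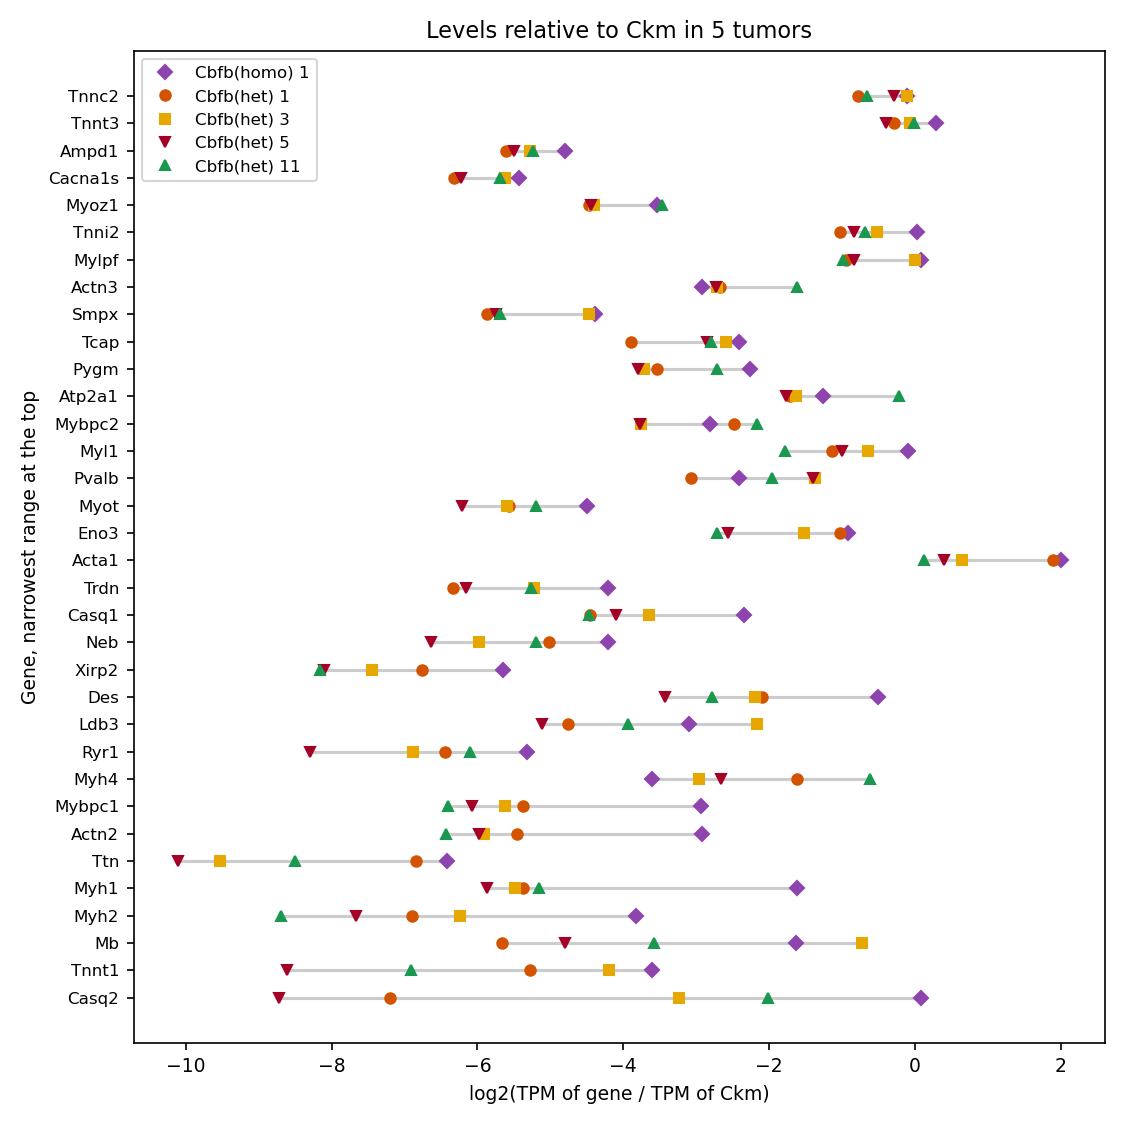
log2 of TPM over Ckm TPM (x axis) for the 34 members with at least 10 counts in each of the 5 tumors (points) with at least 500 Ckm counts, ordered by range (grey line). Tnnc2 and Tnnt3 lie close together in all 5 tumors, and Casq2, Tnnt1, Mb, Myh2 and Myh1 spread by more than 4.

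The comparison the labels imply is Cbfb(het) against Cbfb(wt), with 14 and 3 tumors. No muscle gene passed the test. In edgeR's quasi-likelihood test over 18494 genes, 0% of genes were called at an adjusted p under 0.05 in either direction, while 624 had an unadjusted p under 0.05. Of the members, 36 were tested, all but Myh7, and 0 were called. None had an unadjusted p under 0.05, and each had a Benjamini-Hochberg adjusted p of 0.999 in edgeR. DESeq2 and limma-voom also called 0 of the members. DESeq2 tested 31296 genes and gave 1151 with an unadjusted p under 0.05. In limma-voom, 489 of 18494 genes had one. Among the 1151 genes of DESeq2 were 9 members, of 30 with a p. Acta1, Ckm and Des were among the members without a p there, so DESeq2 and edgeR do not cover the same members.

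Fitted fold changes were positive for 34 tested members and negative for 2, with a median log2 fold change of 4.06 beside 0.03 for all genes tested. Standard errors (SE) were derived from each fold change and the F statistic of its edgeR test, which reports none itself. They were large, and for several genes larger than the fold change itself. Ckm had a log2 fold change of 7.59 ± 4.15 (SE), Acta1 4.47 ± 3.03, Myh4 10.3 ± 5.14, Tnnt3 5.77 ± 3.34, Atp2a1 6.94 ± 3.62 and Pvalb 7.57 ± 4.29. Mb stood at 1.10 ± 1.12, Des at 1.29 ± 1.51, Ldb3 at 0.35 ± 1.03, Ttn at -0.17 ± 1.72 and Casq2 at -0.75 ± 0.87. The fit compares group means, in which 1 tumor weighs heavily. Without Cbfb(het) 5 the median of the members was 1.95, Ckm stood at 5.20, Acta1 at 2.71 and Des at 0.02. As mean log2 CPM (counts scaled to library size), Acta1 was 2.33 ± 3.90 in Cbfb(het) tumors and 1.26 ± 2.43 in Cbfb(wt) tumors (SD, n = 14 and 3). The Cbfb(homo) group is 1 tumor and was left out of the fit.

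**Figure D5:**
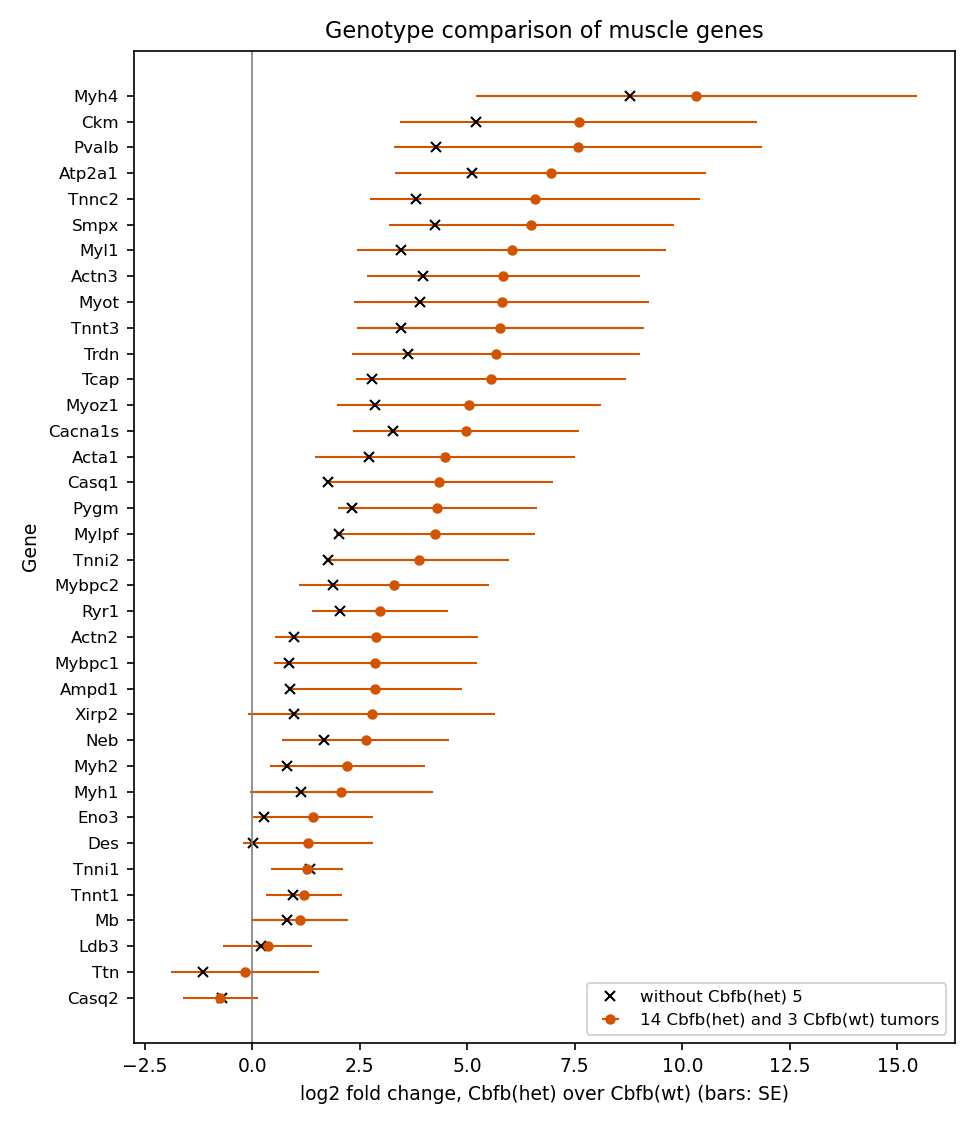
log2 fold change of Cbfb(het) over Cbfb(wt) tumors for the 36 members tested (points, from edgeR, with bars of the SE derived from its F statistic), with the value without Cbfb(het) 5 (crosses). Most points lie right of 0 with wide bars, and the crosses of nearly all lie to their left.

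Other genes of the muscle program were examined through lists chosen with these results known. Of 55 further genes of muscle structure and calcium handling, 49 were tested and 0 called by edgeR, with 1 at an unadjusted p under 0.05. Of the 55, 36 were highest in Cbfb(het) 5, but their summed level was highest in the Cbfb(homo) tumor, at 2633 TPM against 2458 TPM. Of 20 further metabolic genes, 19 were found and tested with 0 called and 1 at an unadjusted p under 0.05. Of these, 13 were highest in Cbfb(het) 5, where the list summed to 513 TPM, against 1738 TPM in Cbfb(het) 2. The share of all genes that were highest in Cbfb(het) 5 was not computed. Pgam2, the muscle phosphoglycerate mutase, stood at 4.59 TPM in the Cbfb(homo) tumor. Its level was 145, 12.5, 5.17 and 4.11 TPM in Cbfb(het) 5, 1, 11 and 3. It was 10.03 and 7.78 TPM in Cbfb(het) 14 and 10, which held little muscle RNA, and at most 0.25 TPM in Cbfb(wt) tumors. Fabp3, a fatty acid carrier also made by lactating mammary cells, was highest elsewhere, at 1664 TPM in Cbfb(het) 2. Tropomyosins Tpm1 and Tpm2, which smooth muscle also makes, were highest in Cbfb(het) 12 (1426 TPM) and in the Cbfb(homo) tumor (786 TPM).

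Regulators that switch on muscle genes were at or near 0. Myod1 had at most 12 counts and Myog at most 18 counts, both in Cbfb(het) 5. Myf5 had 0 counts in all 18 tumors, and Pax7, the satellite cell factor, had at most 2. The exception was Myf6, the regulator that persists in mature fibers, with 190 counts (5.68 TPM) in Cbfb(het) 5, 20 counts in Cbfb(het) 1, 7 in the Cbfb(homo) tumor and 0 in each Cbfb(wt) tumor. Embryonic myosin Myh3 had at most 4 counts, neonatal myosin Myh8 at most 20, in the Cbfb(homo) tumor, and the fetal acetylcholine receptor gene Chrng at most 2. Cardiac actin Actc1 reached 99 counts in Cbfb(het) 5.

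Broader genes of those lists, Mef2c, Six4, Heyl and Cdh15, were highest in Cbfb(het) 12 and not in Cbfb(het) 5. So were Igf2 (111 TPM) and Ncam1 (38.8 TPM). Chrdl2 was highest in Cbfb(wt) 3 (49.4 TPM), and Tnnt2 and Myl4 in Cbfb(het) 14. Pax3, Mymk and Mymx had at most 14, 8 and 3 counts. The myogenic list had 6 genes tested and the embryonic list 4, with 0 called in each and 0 at an unadjusted p under 0.05.

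Markers of other tissues were set beside the muscle genes as summed levels. Adipocyte genes summed to 144 TPM in the Cbfb(homo) tumor, 426, 149, 1469 and 569 TPM in Cbfb(het) 5, 1, 11 and 3. They summed to 1131, 1108 and 934 TPM in Cbfb(het) 10, 14 and 9, which held little muscle RNA, and to 92.2, 140 and 185 TPM in Cbfb(wt) tumors. Fabp4, a gene of this list, alone held 1084, 1059 and 472 TPM of the sums in Cbfb(het) 10, 14 and 9. The adipokine gene Adipoq was 0.11 TPM in the Cbfb(homo) tumor and 11.3, 1.45, 59.4 and 12.6 TPM in Cbfb(het) 5, 1, 11 and 3. Its level was 0.12, 1.08 and 31.2 TPM in Cbfb(het) 10, 14 and 9, and 0, 0.04 and 0.84 TPM in Cbfb(wt) tumors. Of 11 adipocyte genes tested 0 were called by edgeR, and 8 had an unadjusted p under 0.05, beside 624 of all 18494 genes. Their median log2 fold change was 4.73, and the Cbfb(wt) side of it rests on 3 tumors. Smooth muscle and myoepithelial genes summed to 1833 TPM in the Cbfb(homo) tumor and 1465, 855, 544 and 246 TPM in Cbfb(het) 1, 5, 11 and 3. They summed to 1403 and 1043 TPM in Cbfb(het) 12 and 4, which held little muscle RNA, and to 313, 437 and 116 TPM in Cbfb(wt) tumors.

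Tendon genes summed to 67.5 TPM in the Cbfb(homo) tumor, 53.1 TPM in Cbfb(het) 5 and 1070 and 1044 TPM in Cbfb(het) 10 and 14, nearly all from Fmod, and to 13.6, 53.5 and 8.11 TPM in Cbfb(wt) tumors. Nerve genes summed to 74.8 TPM in the Cbfb(homo) tumor, 112 TPM in Cbfb(het) 5 and 35.9 to 219 TPM in Cbfb(wt) tumors. Endothelial genes summed to 215 TPM in the Cbfb(homo) tumor, 57.7 TPM in Cbfb(het) 5 and 41.4 to 148 TPM in Cbfb(wt) tumors. No gene of the adipocyte, nerve, tendon, endothelial, fibroblast, epithelial or erythroid lists was highest in Cbfb(het) 5.

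Fibroblast genes summed to 1985 TPM in the Cbfb(homo) tumor, 1459 TPM in Cbfb(het) 5, 20740 and 20840 TPM in Cbfb(het) 10 and 14, and 7763 TPM in Cbfb(wt) 2. Erythroid genes summed to 905 TPM in the Cbfb(homo) tumor and 7127, 5274, 2810 and 8476 TPM in Cbfb(het) 5, 1, 11 and 3. They were highest in Cbfb(het) 10 and 14, which held little muscle RNA, at 8509 and 8695 TPM, and stood at 453, 2068 and 325 TPM in Cbfb(wt) tumors. Epithelial genes summed to 18440 TPM in the Cbfb(homo) tumor, 6120 TPM in Cbfb(het) 5 and 796 TPM in Cbfb(het) 1, against 9468, 1160 and 4419 TPM in Cbfb(wt) tumors. Heart genes were low except Nppb, at 173 TPM in Cbfb(het) 1 and 40.8 TPM in Cbfb(wt) 1, and Myh6 did not pass 0.59 TPM. The part of adjacent muscle or other tissue in the levels of the 37 genes was not tested.

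Genes outside the set whose levels most resembled it were named by Pearson correlation of log2 CPM with the mean of the members, over 17 points, with Cbfb(het) 10 and 14 averaged. The 15 highest included Art1, Trim54, Hfe2, Sln, Abra, Eef1a2, Cox6a2, Mypn, Lmod3, Smtnl1, Sypl2, Klhl31, Myf6 and Dhrs7c, with r between 0.99 and 0.95. Without the 2 points farthest from the median, Cbfb(het) 5 and 1, r was 0.99 for Art1 and 0.92 for Sypl2. The points share the same libraries and low counts, and these correlations are descriptions. Art1, an ADP-ribosyltransferase, was 0.50 TPM in the Cbfb(homo) tumor, 14.3 TPM in Cbfb(het) 5 and at most 0.13 TPM in Cbfb(wt) tumors. Cox6a2, the muscle form of a cytochrome oxidase subunit, was 2.58 TPM in the Cbfb(homo) tumor, 47.8 TPM in Cbfb(het) 5 and at most 1.00 TPM in Cbfb(wt) tumors.

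The members are spread over 13 chromosomes, with 8 on chromosome 7, 5 each on chromosomes 1 and 11, and 4 on chromosome 2 in the GENCODE annotation of GRCm38. All 37 are protein coding there. A gene on the same strand overlaps 7 of them and a gene on the other strand overlaps 19. Acta1 (chr8:123891769-123894751, minus strand) overlaps Gm20388, which was highest in Cbfb(wt) 2 at 68.6 TPM and at 35.9 TPM in Cbfb(het) 5. Mb overlaps Apol6, and Atp2a1 overlaps Rabep2, which was highest in Cbfb(het) 14 at 26.3 TPM.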

How the data were processed

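RNA of 18 tumors was sequenced from poly(A)-selected, stranded libraries, per the labels' protocols. The authors deposited RSEM expected counts and TPM per gene for each tumor. STAR 2.7.0f, RSEM 1.3.1 and the build mm10 are named in the submitters' processing notes. Expected counts were rounded to whole numbers for all tests. The members and all 14 gene lists were chosen with earlier results of these data known. All 37 members were described, and further named genes were the 15 most alike by Pearson correlation with a highest TPM of at least 1, up to 4 highest genes of a list, every myogenic and embryonic gene, and slow partners, beside a few genes picked after seeing values (Adipoq, Epcam, Myh6, Pgam2 and genes overlapping members). Some genes that this rule names are not reported here.

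Cbfb(het) and Cbfb(wt) tumors were compared with edgeR 4.0.16 in R 4.3.3 (filterByExpr, TMM, robust quasi-likelihood F-test, Benjamini-Hochberg, threshold 0.05), and the code was tested on simulated data. DESeq2 1.42.0 and limma 3.58.1 (voom), other scaling, no filter, and leaving out each tumor were alternatives. log2 CPM used a prior count of 2. Members detected were counted at 1 TPM. RSEM divides reads among similar genes, which can misplace reads among myosin genes. Each tumor came from 1 mouse, per the labels, so spread covers mice and dissection alike. Wilson intervals have 95% confidence. Labels give no batch.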

Additional observations from a re-analysis of the deposited data

How the results depend on the processing

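No paired analysis was possible because the replicate numbers were assigned in record order and pair nothing. No member was called in any of 24 alternatives, and the smallest adjusted p of a member was 0.696 (Atp2a1, DESeq2). The median log2 fold change of the members was 1.13 with limma-voom and 2.17 with DESeq2, where only 30 members had a p. It was 3.91 with no filter and 4.16 with Cbfb(het) 10 and 14 merged. It was also 4.16 without Cbfb(het) 10 and 4.16 without Cbfb(het) 14. When 1 tumor was left out, it ran between 1.95 (without Cbfb(het) 5) and 4.60 (without Cbfb(wt) 2). Tumors with at least 30 members numbered 6 at 10 counts, 1 at 5 TPM and 6 at 0.1 TPM. Cbfb(wt) 2 was among those at 10 counts and at 0.1 TPM, with 30 and 33 members. Of 857 refitted member fold changes 854 kept their direction. Those that turned were Casq2, at 1.54 without Cbfb(wt) 1, and Ttn at 3.49 and Ldb3 at -0.20 without Cbfb(wt) 2. With 1 tumor left out, Casq2 ran between -1.25 and 1.54, Ttn between -1.15 and 3.49 and Ldb3 between -0.20 and 1.85. The cause was not tested. With no filter and in the fit of all 18 tumors 1 gene that is no member was called lower. Fast shares of heavy chain and troponin I TPM were set against the counting interval of the same share computed from counts. Fast shares of troponin T and troponin C TPM were set against the interval of troponin I. They lay inside the interval in 20 comparisons and beyond it in 14. Of the 15 most alike genes 5 were kept with Spearman's rho and 8 on log2(TPM + 1). Low counts limit the tumors with little muscle RNA: in Cbfb(het) 4, 19 members had 3 counts or fewer.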
